A study of Mus musculus with 6 samples.

Results

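The Wnt signalling genes of mouse inguinal white adipose tissue (iWAT), the subcutaneous fat pad of the groin, were read out of a count table of bulk RNA-seq. Members were chosen by symbol. They were the Wnt ligands, Frizzled receptors (*Fzd*), secreted frizzled-related proteins (*Sfrp*), Dickkopfs (*Dkk*) and R-spondins (*Rspo*) that had a row. Added to these were the LRP coreceptors, LGR receptors, β-catenin destruction complex, Dishevelled proteins, TCF/LEF factors and feedback inhibitors named in the rule. Family members without a row, among them *Wnt4*, *Wnt5a* and *Dkk1*, were not covered. Of 19509 symbols in the table, 60 were members with at least 1 row, and a further 3 named in the rule (*Porcn*, *Tcf7l1* and *Lef1*) had no row used here. The table holds 37024 rows, 118 of them of members, and a symbol that took up more than 1 row was represented by its highest. The value of such a symbol can be a part of its counts, as for *Dvl3*, whose highest row had 1957 of 2949.

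The study deleted *Lexis*, a long noncoding RNA, from adipocytes and asked what the deletion does to fat tissue of mice fed a Western diet. In these 6 libraries, 3 were labelled AdWT and 3 AdKO. Lexis-AdWT mice carried the floxed *Lexis* allele without Cre and were littermate controls, and Lexis-AdKO mice carried the same floxed allele with a Cre driven by the adiponectin promoter, which acts in adipocytes and not in the other cells of the pad. Both groups were on the C57BL/6 background and received the diet for 12 weeks, and the labels give neither age nor sex. The study describes the replicates as biological, with 3 mice a group. The labels do not tie a library to an animal, and the p-values measure the spread between these libraries.

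Wnt ligands are secreted lipid-modified proteins that bind a Frizzled receptor and an LRP5 or LRP6 coreceptor. In their absence a complex built on AXIN and APC holds β-catenin for phosphorylation by GSK3 and degradation, and in their presence β-catenin enters the nucleus and acts with TCF/LEF proteins such as TCF7L2. In fat, canonical Wnt signalling is known for restraining the conversion of precursor cells into adipocytes, and adipocytes themselves secrete inhibitors of it.

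Total counts ran from 14470542 to 17882713 per library. Levels are given in CPM, the counts scaled to a common library size with TMM factors, and changes are log2 fold changes of AdKO over AdWT. On the first principal component, which held 41.6% of the variance, AdWT replicate 3 stood at 40 and the other 5 libraries between −27.3 and 8.95. The row of the targeted gene, listed as *4930412L05Rik*, had 8, 9 and 8 counts under the AdWT label against 21, 11 and 13 under the AdKO label (log2 fold change 0.87 ± 0.38, SE; edgeR, adjusted p = 0.851). By qRT-PCR, the study reports that *Lexis* expression was lost in adipose tissues of its AdKO mice and kept in other metabolic organs. Whether the row covers the deleted part is not given in the sources used here, so AdWT and AdKO stand throughout for libraries that carry these labels. Of the 8 adipocyte markers listed, 6 had a row. *Adipoq*, *Fabp4* and *Lep* stood at 4680 CPM or more in every library, *Lipe* at 86.0 to 123 CPM, *Plin1* at 31.8 to 38.6 CPM, and *Pnpla2* at 0. The summed CPM of the adipocyte list was 46200, 50300 and 54700 in AdWT and 42100, 41500 and 41400 in AdKO, with no overlap. *Fabp4* carried most of this sum, 2 genes of the list did not overlap singly, and *Adipoq* did (5290 CPM in AdWT replicate 1, 6240 in AdKO replicate 1). Of the 5 tested genes of the list, 4 lay below 0 and 1, *Plin1*, above. A skeletal muscle list summed to between 19.8 and 178 CPM in AdWT and between 6.31 and 7.22 in AdKO, and all 7 of its tested genes were lower at an unadjusted p under 0.05 (median log2 fold change −3.50). A macrophage list summed to 752, 570 and 358 CPM in AdWT and 634, 788 and 776 CPM in AdKO, with all 3 tested genes above 0 (median 0.41), and was lowest in AdWT replicate 3. The part of these cells in the results below was not tested. An epithelium list summed to 22.5 CPM in AdWT replicate 3 and 54.1 in AdKO replicate 3 and to between 1.90 and 2.96 in the other 4 libraries.

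Of the 60 members, 27 had enough counts to be tested, 24 had counts but stayed under the filter, and 9 were listed at 0 in every library. No member was called at an adjusted p under 0.05 (quasi-likelihood test of edgeR, Benjamini-Hochberg adjustment over all rows tested), and the smallest adjusted p among them was 0.851. The background was the same, since 0 of 9872 rows tested (0%) were called and the smallest adjusted p of the table was 0.206. At an unadjusted p under 0.05 stood 2 of the 27 members (7.41%), the secreted inhibitor *Sfrp5* and the feedback inhibitor *Nkd1*, beside 5.73% of all rows tested. Both were lower in AdKO, where the background in that direction was 2.98%. DESeq2, which tested 51 members, put 3 at an unadjusted p under 0.05 and called none. Over the whole table it put 473 rows at that p and called 17. The third member was *Lgr5*, which was higher (log2 fold change 2.95) and had 19 of its 27 counts in AdKO replicate 3. The median log2 fold change of the members tested was −0.07, beside 0.01 for all rows tested, and 15 of the 27 members (55.6%) lay below 0, beside 48.3% of all rows.

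**Figure D1:**
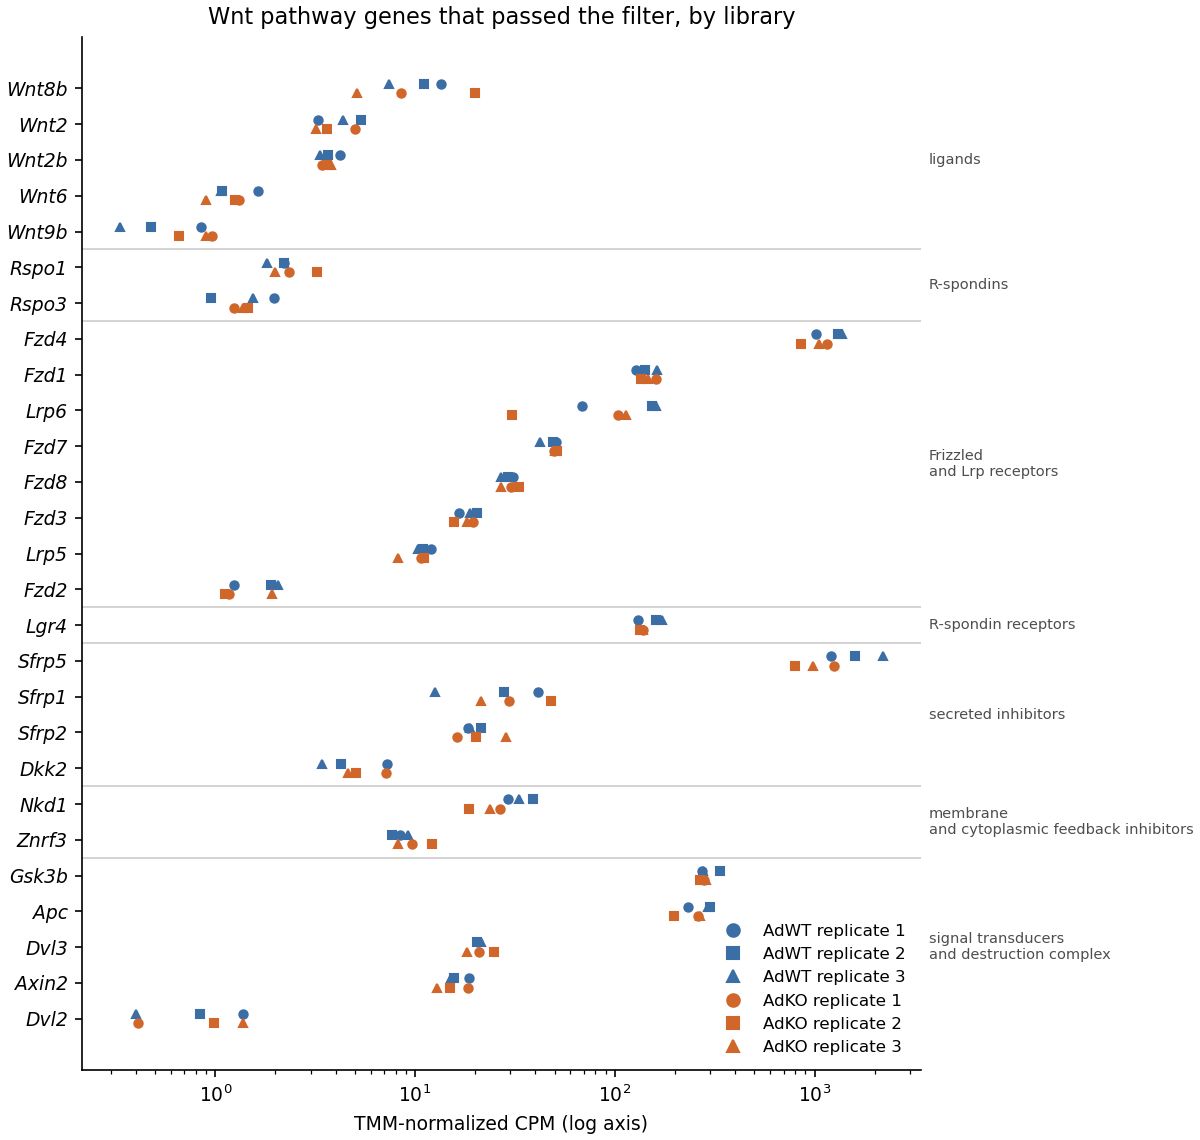
TMM-normalized CPM (log axis) of the 27 Wnt pathway genes that passed the filter, 1 point per library, blue for AdWT and orange for AdKO, grouped by role. *Sfrp5* and *Fzd4* lie above the rest, at 796 CPM or more in every library, and in all genes but *Nkd1* the points of the groups overlap.

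A pair of members held the largest shares of the counts as listed. *Sfrp5* held between 29.3% and 45.1% of all counts of the 60 members in a library, and *Fzd4* between 28.1% and 32.4%. The shares depend on what the table counts, as *Ctnnb1*, made in nearly every cell, had 45 counts and *Dvl1* had 0. Per kb of exon, which allows levels to be set side by side, *Sfrp5* averaged 705 CPM per kb and *Fzd4* 306. No other tested member with a single row passed 33.3 CPM per kb, the level of *Fzd1*.

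*Sfrp5* encodes a secreted frizzled-related protein, a soluble decoy that binds Wnt ligands outside the cell and that adipocytes are known to make. It lies on the minus strand of chromosome 19 (chr19:42272461-42276742, mm9). Its level was 1210, 1600 and 2190 CPM in AdWT replicates 1 to 3 and 1250, 796 and 988 CPM in AdKO replicates 1 to 3. AdWT replicate 3 was the highest library and AdKO replicate 2 the lowest, and the groups overlapped, because AdWT replicate 1 lay below AdKO replicate 1. The group means were 1670 ± 496 and 1010 ± 230 CPM (SD, n = 3 each). The log2 fold change was −0.72 ± 0.24 (SE), with a 95% interval from −1.28 to −0.15 (edgeR, adjusted p = 0.851). The exact permutation test over libraries (two-sided, on log2 CPM) gave p = 0.2, and with 3 against 3 libraries it cannot go below 0.1.

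Leaving out single libraries moved this difference or its p. Without AdWT replicate 3, the library that stood apart, the log2 fold change of *Sfrp5* was −0.48 (edgeR, adjusted p = 0.941) and no longer at an unadjusted p under 0.05, which was also lost without AdKO replicate 2 (−0.58) and, at nearly the same size, without AdKO replicate 3 (−0.70). Without AdWT replicate 2 it was −0.75. Without AdWT replicate 1 it was −0.90 (edgeR, adjusted p = 0.391). The level of *Sfrp5* also moved with that of the adipocyte genes: the mean log2 CPM of the 5 tested genes of the adipocyte list, none of them a member, was 10.39, 10.55 and 10.69 in AdWT and 10.4, 10.3 and 10.35 in AdKO. On this scale the groups overlapped, as AdWT replicate 1 lay below AdKO replicate 1, and the lowest and the highest library were those of *Sfrp5*. With that mean as a covariate, a fit added after the data were seen, the log2 fold change of *Sfrp5* was −0.06 ± 0.14 (SE; edgeR, adjusted p = 0.943). The mean was highest in AdWT replicates 2 and 3, so this fit cannot cleanly separate it from the group label. In bulk tissue, fewer adipocytes and less RNA of adipocyte genes per cell cannot be told apart.

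**Figure D2:**
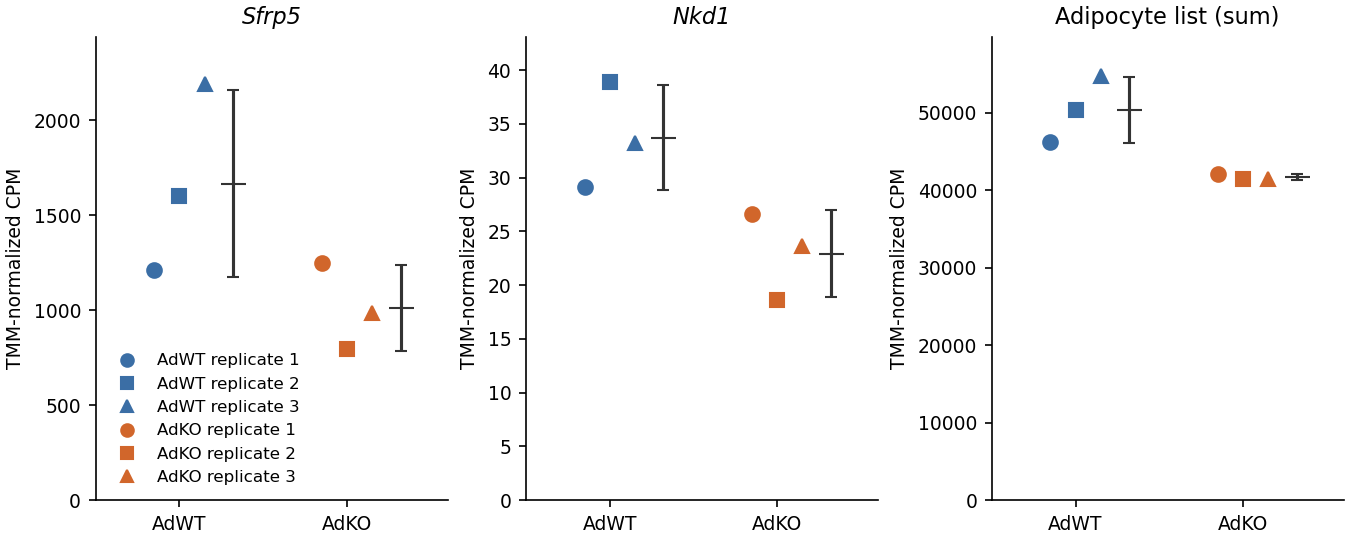
TMM-normalized CPM of *Sfrp5*, *Nkd1* and the summed adipocyte list in each library (points; axes start at 0), with the group mean and SD of 3 libraries beside them. For *Sfrp5*, AdWT replicate 1 lies below AdKO replicate 1, while for *Nkd1* and the adipocyte list every AdWT library lies above every AdKO library.

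*Nkd1* encodes Naked cuticle 1, a cytoplasmic protein that binds Dishevelled and that canonical Wnt signalling itself induces, so it serves as a feedback inhibitor and as a target gene. It lies on the plus strand of chromosome 8 (chr8:91045243-91118786, mm9). The row held 29.1, 38.9 and 33.2 CPM in AdWT and 26.6, 18.6 and 23.6 CPM in AdKO. Every AdWT library lay above every AdKO library. The means were 33.7 ± 4.89 and 22.9 ± 4.06 CPM (SD, n = 3 each), and the log2 fold change was −0.56 ± 0.16 (SE), with a 95% interval from −0.94 to −0.18 (edgeR, adjusted p = 0.851). The two-sided exact permutation test gave p = 0.1, the smallest that it allows. With the adipocyte mean as a covariate the log2 fold change was −0.35 ± 0.21 (SE; edgeR, adjusted p = 0.754) and no longer at an unadjusted p under 0.05. With each library left out in turn it stayed between −0.68 and −0.43, each time at an unadjusted p under 0.05.

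To show the start regions of the members with the smallest p-values, the 250 bases before the RefSeq transcription start of each are printed from the GRCm38.p6 promoter windows, with CpG pairs in capitals. For *Sfrp5* this is chr19:42202253-42202502 on the minus strand (59.6% GC, 13 CpG pairs), and for *Nkd1* chr8:88527383-88527632 on the plus strand (58.4% GC, 6 CpG pairs). The medians over all windows used were 52.4% GC and 6 CpG pairs.
Sfrp5: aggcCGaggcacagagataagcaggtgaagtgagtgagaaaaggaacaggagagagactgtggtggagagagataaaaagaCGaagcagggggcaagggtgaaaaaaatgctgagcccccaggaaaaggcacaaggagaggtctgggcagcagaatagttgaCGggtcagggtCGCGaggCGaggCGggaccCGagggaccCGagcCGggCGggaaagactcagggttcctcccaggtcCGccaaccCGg
Nkd1: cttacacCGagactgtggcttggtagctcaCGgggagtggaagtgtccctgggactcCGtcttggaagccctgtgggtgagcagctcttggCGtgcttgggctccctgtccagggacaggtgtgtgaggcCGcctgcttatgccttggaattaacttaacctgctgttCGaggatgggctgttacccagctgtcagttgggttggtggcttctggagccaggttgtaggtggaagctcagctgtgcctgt

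Because the study looks at *Lexis* together with TCF7L2, TCF/LEF core letters were searched for. The windows of 300 bases (250 before and 50 after the start) were searched on both strands for CTTTGAT and CTTTGAA. Neither stretch printed above held a match. Windows on chromosome 18, where *Apc*, *Fzd8* and *Wnt8a* lie, were not used. Of the 40 members with a window used, 2 held a match (5.0%), *Wnt11* and *Wnt5b*, beside 9.9% of all 27025 genes with one. A match is a description of letters and not of binding, and these windows leave out distal elements.

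Of 17 ligand genes with a row, 5 were tested, 7 had between 1 and 41 counts over all 6 libraries, and *Wnt3a*, *Wnt7a*, *Wnt8a*, *Wnt10b* and *Wnt11* were listed at 0. *Wnt8b*, a canonical ligand best known from the developing forebrain, had the most ligand counts and averaged 3.24 CPM per kb, above *Wnt2* (1.83), *Wnt2b* (1.03), *Wnt6* (0.584) and *Wnt9b* (0.154). The gene lies at chr19:44567962-44588763 (mm9, plus strand). Its levels were 13.5, 11.1 and 7.43 CPM in AdWT and 8.52, 19.9 and 5.11 CPM in AdKO. Both the highest library (AdKO replicate 2) and the lowest (AdKO replicate 3) belonged to AdKO, 3.89 times apart. The log2 fold change was 0.06 ± 0.47 (SE), with an interval from −1.04 to 1.17 (edgeR, adjusted p = 0.984). The nearest annotated neighbour on the chromosome, *Sec31b*, lies 2.7 kb away on the other strand and had 47 counts in all.

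*Wnt10a*, a ligand known for restraining adipocyte formation, was the only ligand with at least 10 counts whose groups did not overlap. It had 6, 4 and 2 counts in AdWT and 1, 1 and 0 in AdKO, under 3 counts in 4 of the 6 libraries, and it was not tested. Over all members with at least 10 counts, 3 of 43 (6.98%) did not overlap in either direction, beside 11.1% of the 14282 rows with at least 10 counts. Lower in AdKO were 2 of them, *Nkd1* and *Wnt10a*, beside 5.08% of those rows in that direction. The other 4 tested ligands had log2 fold changes from −0.14 for *Wnt2* to 0.60 for *Wnt9b*, whose interval ran from −0.37 to 1.56 (edgeR, adjusted p = 0.853).

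R-spondins are secreted proteins that raise Wnt signalling by binding LGR receptors and drawing the ubiquitin ligases ZNRF3 and RNF43 away from Frizzled. *Rspo1*, the member of this group with the most counts, stood at 2.22, 2.21 and 1.81 CPM in AdWT and at 2.34, 3.23 and 1.98 CPM in AdKO. The groups overlapped, with AdKO replicate 2 the highest library, and the log2 fold change was 0.27 ± 0.25 (SE; edgeR, adjusted p = 0.885). It was 0.04 without AdKO replicate 2 and 0.42 without AdKO replicate 3. *Rspo3* was the other tested R-spondin (−0.12 ± 0.31, SE), *Rspo4* had 2 counts, and *Rspo2* was listed at 0.

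Among the LGR receptors, *Lgr4* was the one with a tested row, at 131, 161 and 172 CPM in AdWT and 139, 134 and 139 CPM in AdKO. AdWT replicate 1 was the lowest of the 6 libraries, and the remaining AdWT libraries were the highest. The log2 fold change was −0.17 ± 0.10 (SE), with an interval from −0.42 to 0.07 (edgeR, adjusted p = 0.853). Without AdWT replicate 1 it was −0.28, with an unadjusted p under 0.05 (edgeR, adjusted p = 0.391), and without AdWT replicate 3 it was −0.10. With the adipocyte mean as a covariate it turned to 0.08 (edgeR, adjusted p = 0.859).

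All 12 Frizzled and LRP genes had counts, and 8 were tested. *Fzd4*, the receptor that also binds the ligand norrin (chr7:96552876-96558620, mm9, plus strand), had 1020, 1310 and 1370 CPM in AdWT and 1160, 859 and 1050 CPM in AdKO. The groups overlapped, since AdWT replicate 1 was lower than both AdKO replicates 1 and 3, and AdKO replicate 2 was the lowest library, as for *Sfrp5*. The means were 1230 ± 188 and 1020 ± 152 CPM (SD, n = 3 each), and the log2 fold change was −0.27 ± 0.15 (SE), with an interval from −0.62 to 0.08 (edgeR, adjusted p = 0.853). Leaving out AdWT replicate 1 gave −0.39, with an unadjusted p under 0.05 (edgeR, adjusted p = 0.396), and leaving out AdKO replicate 2 gave −0.16. It turned to 0.07 (edgeR, adjusted p = 0.931) with the adipocyte mean as a covariate.

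Below *Fzd4* the Frizzled levels ran from *Fzd1* (33.3 CPM per kb) over *Fzd7* (10.2), *Fzd8* (8.81) and *Fzd3* (4.30) to *Fzd2* (0.434). Between libraries *Fzd7* ranged over 1.21 times and *Fzd8* over 1.23 times, more than the step between these neighbours, whereas the other steps were larger than the spread of the libraries. The log2 fold changes of *Fzd1*, *Fzd3*, *Fzd7* and *Fzd8* lay between −0.07 and 0.09. Their intervals were narrower than those of the other tested Frizzled and LRP genes, the widest of the 4 running from −0.38 to 0.24 for *Fzd3*. With the adipocyte mean as a covariate *Fzd1* stood at 0.29 (edgeR, adjusted p = 0.549) and was the one member at an unadjusted p under 0.05. *Fzd5*, *Fzd6*, *Fzd9* and *Fzd10* had between 14 and 42 counts over the 6 libraries.

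The coreceptors bind Wnt ligands together with Frizzled, and both were tested. *Lrp5* stayed between 8.23 and 12 CPM in the 6 libraries (log2 fold change −0.15 ± 0.16, SE). *Lrp6*, singled out after its values were seen, had 68.2, 154 and 160 CPM in AdWT and 104, 30.7 and 114 CPM in AdKO. Its highest library was 5.20 times its lowest, the widest range of the tested members, and the groups overlapped. The log2 fold change of −0.62 had an SE of 0.50 and an interval from −1.78 to 0.54 (edgeR, adjusted p = 0.859).

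**Figure D3:**
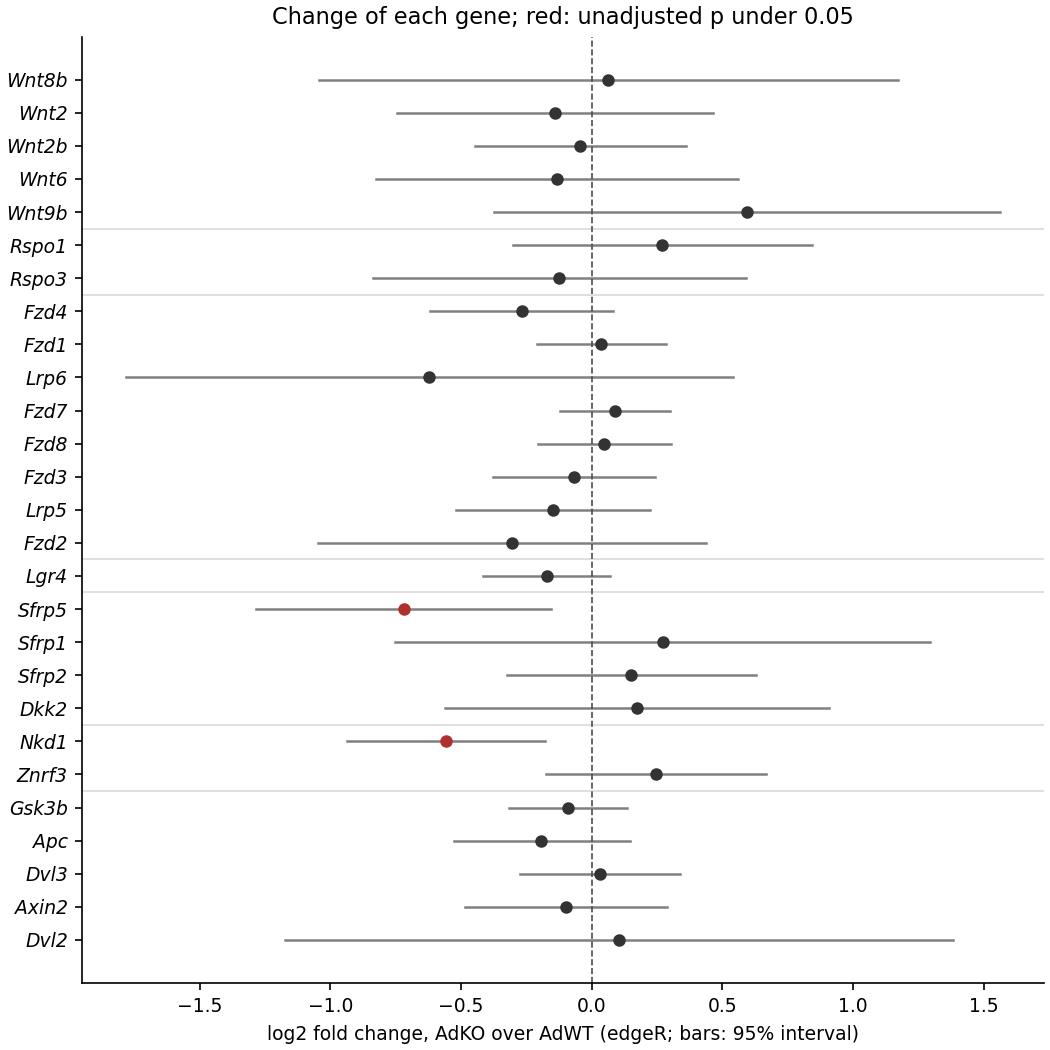
Log2 fold change of AdKO over AdWT for the 27 tested genes (points) with 95% intervals from the edgeR fit (bars), grouped by role. Only the intervals of *Sfrp5* and *Nkd1* (red, unadjusted p under 0.05) leave out 0, and *Lrp6*, *Wnt8b*, *Wnt9b*, *Sfrp1* and *Dvl2* have the widest ones.

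The intervals set how large a change these libraries could hide. For 20 of the 27 tested members the whole 95% interval lay within ±1 on the log2 scale, that is, within a doubling or halving. The exceptions were *Wnt8b*, *Wnt9b*, *Fzd2*, *Lrp6*, *Sfrp1*, *Sfrp5* and *Dvl2*.

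Besides *Sfrp5*, the tested secreted inhibitors were *Sfrp1*, *Sfrp2* and *Dkk2*, the last a protein that binds LRP5 and LRP6. All 3 had log2 fold changes above 0, from 0.15 to 0.27, and none had an adjusted p under 0.899 (edgeR). *Sfrp1* had 41.4, 28 and 12.6 CPM in AdWT and 29.6, 47.9 and 21.5 CPM in AdKO. Its lowest library was AdWT replicate 3 and its highest AdKO replicate 2, the reverse of *Sfrp5*. On the per-kb scale, *Sfrp5* (705 CPM per kb) stood far above *Sfrp2* (9.58), *Sfrp1* (6.89) and *Dkk2* (1.43). *Sfrp4*, *Wif1*, *Notum*, *Dkk3* and *Dkkl1*, the last placed in this role by its symbol alone, had at most 54 counts in all. *Dkk4* was listed at 0.

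The remaining feedback inhibitors act at the membrane or in the cytoplasm. *Znrf3*, a ubiquitin ligase that removes Frizzled from the cell surface and that the pathway induces, had a log2 fold change of 0.25 ± 0.18 (SE; edgeR, adjusted p = 0.855), opposite in sign to *Nkd1*. *Rnf43* and *Nkd2* stayed under the filter, with 48 and 5 counts.

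*Axin2*, the scaffold of the destruction complex that is widely read as a canonical target gene (chr11:108781663-108812097, mm9, plus strand), had 18.7, 15.6 and 15.1 CPM in AdWT and 18.4, 14.9 and 12.9 CPM in AdKO. The groups overlapped, and both replicates numbered 1 were the highest. The log2 fold change was −0.10 ± 0.17 (SE), with an interval from −0.48 to 0.29 (edgeR, adjusted p = 0.916). The two-sided exact permutation test gave p = 0.5. The annotation places *Gm11670* over *Axin2* on the other strand, and how strand was used in the counting is not given. Of 8 members listed as β-catenin targets, 7 had a row and 3 were tested, *Axin2*, *Nkd1* and *Znrf3*, and 2 of these lay below 0.

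*Gsk3b*, the kinase that marks β-catenin for degradation, had the most counts of the signal transducers, with 272, 337 and 276 CPM in AdWT and 280, 266 and 286 CPM in AdKO. AdWT replicate 2 was above the others, and the groups overlapped. The log2 fold change was −0.09 ± 0.10 (SE), with an interval from −0.32 to 0.14 (edgeR, adjusted p = 0.885). *Apc*, the tumour suppressor that scaffolds the same complex, was at −0.19 ± 0.14 (SE), and *Dvl3* and *Dvl2* were at 0.03 and 0.10.

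*Ctnnb1*, which encodes β-catenin and is made in nearly every cell, had between 5 and 9 counts per library in its highest row, and *Axin1* had 71 over all libraries. *Dvl1* and *Tcf7* were listed at 0 throughout. The same holds for *Pnpla2*, a lipase that adipocytes make in quantity, so a low or 0 entry in this table is given here as listed and is not read as a missing transcript. Of the 9 members at 0, 4 had several rows and 5 had 1.

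*Tcf7l2*, the TCF/LEF factor that the study places beside *Lexis*, lies at chr19:55816300-56008144 (mm9, plus strand) and had 15 rows, of which 4 held counts. The highest row had 3, 13 and 22 counts in AdWT and 6, 7 and 6 in AdKO and stayed under the filter. Summed over the rows, the gene had 5, 20 and 25 counts in AdWT and 9, 9 and 11 in AdKO, or 0.327, 1.19 and 1.67 CPM against 0.619, 0.592 and 0.662 CPM. AdWT replicate 1 was the lowest library and AdWT replicates 2 and 3 the highest, so the groups overlapped. The summed log2 fold change was −0.76 ± 0.54 (SE), with an interval from −2.04 to 0.52 (edgeR, adjusted p = 0.843), and the two-sided exact permutation test gave p = 0.4. Without AdWT replicate 3 it was −0.30. Without AdWT replicate 1, which had 5 counts beside 20 and 25, the value was −1.18, with an unadjusted p under 0.05 (edgeR, adjusted p = 0.372). With the adipocyte mean as a covariate it turned to 0.70 (edgeR, adjusted p = 0.796).

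**Figure D4:**
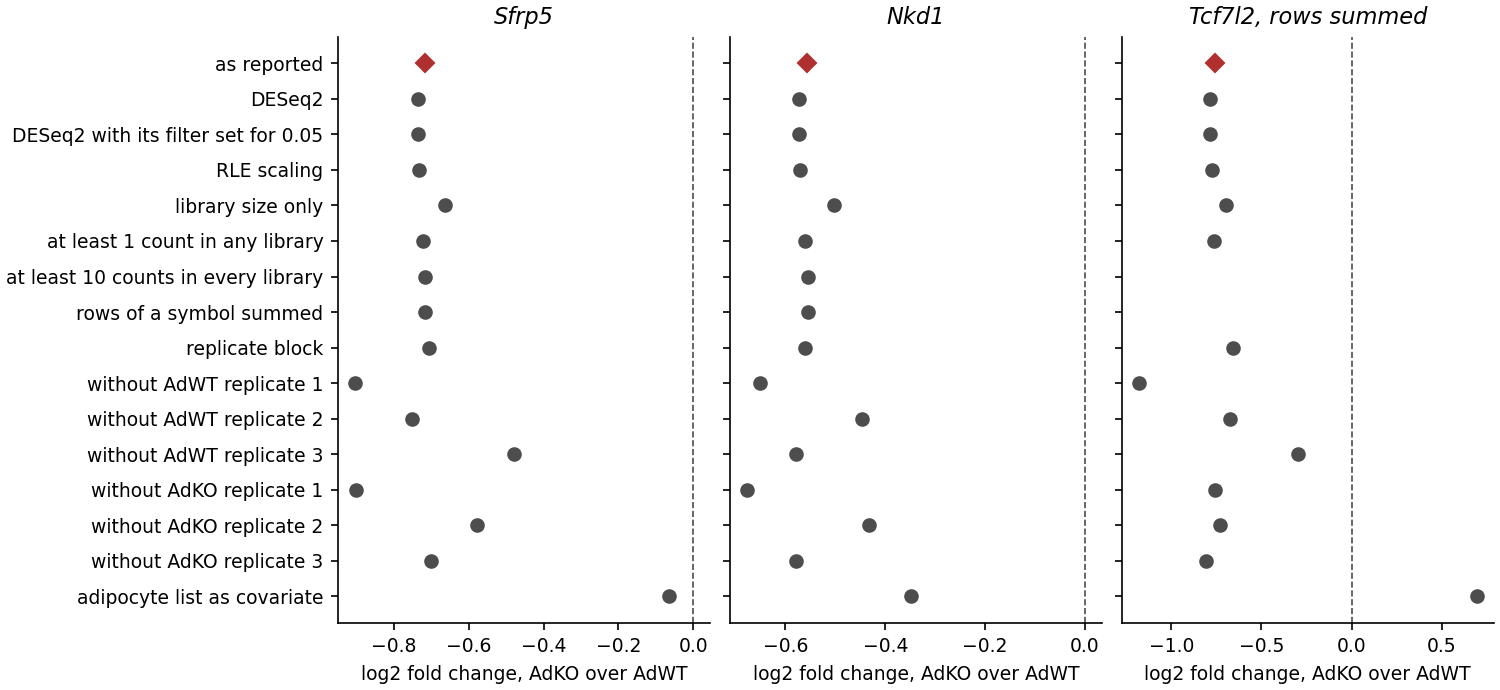
Log2 fold change of AdKO over AdWT for *Sfrp5*, *Nkd1* and *Tcf7l2* (rows summed) as reported (red diamond) and under each alternative (grey points). The adipocyte covariate brings *Sfrp5* to −0.06 and turns *Tcf7l2* to 0.70, and leaving out AdWT replicate 3 brings *Sfrp5* to −0.48.

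Of the 24 members under the filter, 7 had their highest count in AdKO replicate 3 alone (29.2%), beside 16.8% of the 9682 rows with counts under the filter. These 7 were singled out after their values were seen. *Lgr6*, an R-spondin receptor known from skin, had 1, 1 and 1 counts in AdWT and 1, 3 and 9 in AdKO, and was the member counted above as not overlapping and higher, with AdKO replicate 1 equal in counts to the AdWT libraries. *Lgr5*, a receptor that marks epithelial stem cells, had 2, 1 and 0 counts in AdWT and 4, 1 and 19 in AdKO. *Fzd10* had 0, 2 and 0 counts against 0, 2 and 10.

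The 3 counts of *Wnt7b* all fell in AdKO replicate 3, and *Rnf43* had 3, 6 and 12 counts in AdWT and 7, 5 and 15 in AdKO. *Axin1* had 20 counts there beside 9 to 13 elsewhere, and *Fzd9* 11 beside 3 to 9. That library also had the highest summed level of the epithelium list, with 8 of 9 genes in the table and, among its defining markers, *Epcam* at 216 counts beside 3 to 20 in the other libraries. *Krt14* and *Elf5* were at 0 in replicates 1 and 2 of both groups. The part of epithelial RNA in these counts was not tested. The 17 other members under the filter did not have their highest count in that library alone.

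**Figure D5:**
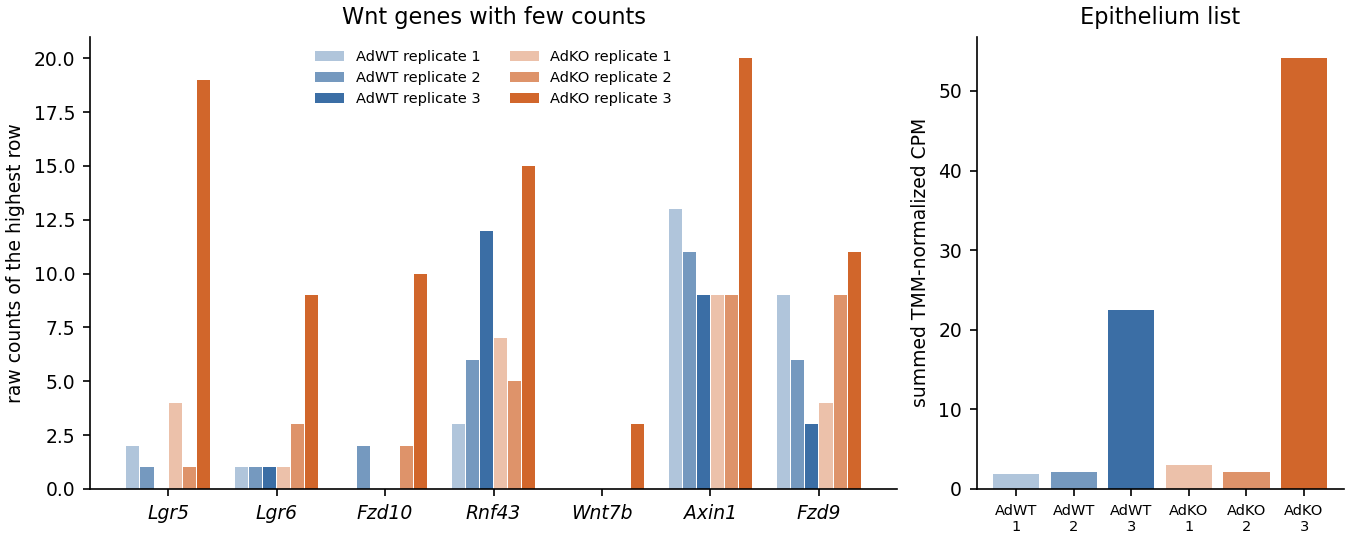
Raw counts of the 7 Wnt genes under the filter that were highest in AdKO replicate 3 in each library (left, bars from 0) and the summed TMM-normalized CPM of the epithelium list (right). The genes were chosen for this library, and the list is also highest there (54.1 CPM), followed by AdWT replicate 3 (22.5 CPM).

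Beyond the members, 79 further pathway genes were listed, of which 63 had a row and 41 were tested. Of these, 25 lay below 0 (61.0%, beside 48.3% of all rows tested) and 16 above, with a median of −0.05, and none was called. An unadjusted p under 0.05 was reached by 3 (7.32%, beside 5.73% of all rows tested), all lower in AdKO, where the background was 2.98% (adjusted p of 0.847 or above, edgeR). Of the 53 genes with at least 10 counts, 4 did not overlap (7.55%, beside 11.1%), 3 of them lower (5.66%, beside 5.08%). *Jun*, a transcription factor listed among reported targets, had 262, 247 and 288 CPM in AdWT and 227, 202 and 220 CPM in AdKO, without overlap (log2 fold change −0.30 ± 0.08, SE). *Ctnnbip1*, which encodes an inhibitor of β-catenin binding to TCF factors, did not overlap either (−0.44 ± 0.18, SE). *Gpc3*, a cell surface glypican, did (−0.95 ± 0.35, SE), because AdWT replicate 3 at 7.96 CPM lay below AdKO replicate 2 at 9.22 CPM. The others without overlap were *Plcb4*, lower and untested with 27 counts, and *Gsk3a*, the sister kinase of *Gsk3b*, higher at 133, 131 and 131 CPM in AdKO beside 125, 124 and 124 CPM in AdWT (log2 fold change 0.08).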

How the data were processed

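Bulk RNA-seq of iWAT was measured in 6 libraries, 3 labelled Lexis-AdWT and 3 Lexis-AdKO. Per the study's methods, RNA went into a stranded KAPA kit for Illumina sequencing, and reads were aligned with HISAT2 to mm9. The deposited values are raw counts per row that the authors made before their DESeq2 test. The counting tool, annotation and use of strand are not given in the sources used here, so reads of overlapping genes may be shared. All columns were matched to labels.

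Members, lists and alternatives were chosen with earlier results of these data known. Counts were fitted with edgeR 4.0.16 in R 4.3.3 (filterByExpr, TMM, quasi-likelihood test, Benjamini-Hochberg over the 9872 rows that passed), tested on simulated data first. Intervals are 95%. Exact permutation tests used log2(CPM + 0.5). A count of 0 allows up to 3 counts (0.179 to 0.206 CPM), for counting error only. Values in every library are given for members with an unadjusted p under 0.05, members with at least 10 counts whose groups did not overlap in CPM, the highest member of each role, *Tcf7l2* and *Axin2*. Other members with values were singled out afterwards. The highest row of *Tcf7l2* did not pass the filter, so its summed rows were fitted. Genomic positions are from GENCODE vM1 (mm9), and promoter windows from RefSeq (GRCm38.p6). Alternatives were DESeq2 1.42.0, other scaling and filters, summed rows, the replicate number as a block, each library left out, and the adipocyte mean as a covariate.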

Additional observations from a re-analysis of the deposited data

How the results depend on the processing

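No member was called under any alternative run, and the lowest adjusted p of a member was 0.175 (*Sfrp5*, DESeq2 with its filter set for 0.05). Over the whole table, DESeq2 called 17 rows with its defaults and 27 with its filter set for 0.05, and edgeR called 1 with every row of at least 1 count and 0 to 1 without single libraries (1 without AdKO replicate 3). Members at an unadjusted p under 0.05 numbered 4 of 51 with every row of at least 1 count, beside 845 rows of the table. *Lgr5*, higher, and *Wnt10a*, lower, were the additional ones. With the adipocyte covariate it was 1 of 27 (*Fzd1*, and neither *Sfrp5* nor *Nkd1*), beside 738 rows. Without single libraries such members numbered 1 to 6. The 6 came without AdWT replicate 1, where the whole table rose from 566 to 1208 rows, and the 1 without AdWT replicate 3, AdKO replicate 2 or AdKO replicate 3. Other pathway genes at that p numbered 5 with either DESeq2 setting, 6 with every row of at least 1 count and 1 to 4 without single libraries. The median of the members tested was 0.004 with either DESeq2 setting, −0.015 with library size only, −0.004 with every row of at least 1 count, and −0.113 to 0.019 without single libraries, so its sign is not settled.

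Signs were followed for *Sfrp5*, *Nkd1*, *Axin2*, *Tcf7l2* and the tested member with the most counts in each other role (*Wnt8b*, *Rspo1*, *Fzd4*, *Lgr4*, *Gsk3b*), and for no other member. Without single libraries *Wnt8b* ran from −0.657 to 0.413, *Axin2* from −0.247 to 0.018 and *Gsk3b* from −0.145 to 0.012. The adipocyte covariate, added after seeing the data, gave 0.071 for *Fzd4*, 0.082 for *Lgr4*, −0.006 for *Rspo1*, −0.735 for *Wnt8b* and 0.695 for *Tcf7l2*. The cause was not tested.

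With the replicate number as a block, *Wnt8b* turned to −0.101, *Sfrp5* was −0.705 and *Nkd1* −0.561, and 0 members were called. Deviations of same-numbered libraries correlated at −0.0764, −0.132 and 0.33, and AdWT replicate 1 correlated best with AdKO replicate 2 (0.411), so the numbers do not show a pairing. With 3 libraries a group, members of few counts, among them *Tcf7l2*, *Ctnnb1* and most ligands, had wide intervals or no test.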
